A study of Mus musculus with 4 samples.

Results

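The type I interferon response was examined through 44 genes, chosen by symbol from general knowledge of the pathway, with earlier results of these arrays known: receptor subunits, RNA and DNA sensors, transcription factors and antiviral effectors. Of the 44, 43 had a probe named for them on the Illumina mouse bead arrays (Ifi44 was not named in the annotation used here), and 38 had a probe above an intensity floor of 16 on at least 1 array. The other 5, namely Ifnar1, Ifih1, Ifit1, Oas1a and Xaf1, lay at or below the floor on every array and had no measurable difference. The fit behind every test covered 10413 features, of which these 38 genes were part.

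The tested cells were CD4+CD62L-CD44+ T cells, an effector memory phenotype, sorted by flow cytometry from spleen and lymph nodes. The dKO mice, on the C57BL/6 background, lacked MEKK2 and carried 1 null and 1 floxed allele of MEKK3 together with Cre driven by the Lck promoter, which is active in T cells. They were compared with C57BL/6 WT mice, and there were 2 arrays in each group, numbered 1 and 2. The labels give no age and name no animal for an array, so p-values measure array-to-array spread that may be technical. The deposited intensities are on a linear, background-subtracted scale, and the dKO and WT arrays of 1 number share 1 distribution, so deposited values are best read within a number. Values per array below are deposited intensities, given for numbers 1 and 2 in turn, while differences, means and overlap between groups are on the quantile-normalized log2 scale.

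Type I interferons bind the receptor made of IFNAR1 and IFNAR2, whose kinases phosphorylate STAT2. STAT2 and IRF9 are subunits of the factor ISGF3, which binds the interferon-stimulated response element in the promoters of many genes. Many of their products recognise viral RNA, degrade it or block its translation, and others, such as USP18, switch the receptor off again. Many cells keep a low, tonic level of this programme without infection.

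Sequence windows around the start of transcription, taken from RefSeq on build GRCm38.p6, covered 33 of the 44 genes, each with 250 bases before and 50 after a start. The core of the response element was searched as 2 runs of GAAA with any 2 bases between them, on both strands, overlapping matches included. It was present in a window of 15 of the 33 genes (45.5%), against 1079 of 27025 genes with a window (3.99%). By role it was found in 3 of 3 sensors, 2 of 8 transcription factors, 10 of 20 effectors and 0 of 2 receptor subunits. A match is a stretch of letters, with no binding measured. The stretches of Isg15, Ifit3, Stat2 and Ifitm2 are printed because the arrays of the 2 groups did not overlap for these genes. Rsad2 is printed because its arrays did overlap. Each runs 5′ to 3′ on the strand of its gene, with matches in capitals.
Isg15, chr4:156200845-156200926, minus strand, 3 overlapping matches: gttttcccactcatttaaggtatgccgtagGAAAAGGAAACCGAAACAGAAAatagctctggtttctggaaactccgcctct
Ifit3, chr19:34583343-34583446, plus strand, 2 matches: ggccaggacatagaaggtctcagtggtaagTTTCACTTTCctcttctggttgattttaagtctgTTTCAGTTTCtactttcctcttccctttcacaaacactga
Stat2, chr10:128270248-128270315, plus strand, 1 match: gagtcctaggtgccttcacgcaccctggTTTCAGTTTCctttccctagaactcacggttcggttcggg
Ifitm2, chr7:140955968-140956037, minus strand, 1 match: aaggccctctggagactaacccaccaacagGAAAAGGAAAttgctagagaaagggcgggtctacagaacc
Rsad2, chr12:26456533-26456602, minus strand, 1 match: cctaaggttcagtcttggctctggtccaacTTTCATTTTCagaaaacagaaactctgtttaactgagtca
In Isg15 the matches join into 1 run that begins 78 bases before the start. The Ifit3 matches begin 156 and end 113 bases before it. The motif was also present in Ifit1, Oas1a and Ifih1, which lay at or below the intensity floor. No match was found in the windows of Irf7, Ifi35 or Oasl2, whose values were lower in dKO.

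Comparing dKO with WT cells, 30 of the 38 genes had a lower mean in dKO, by up to 1.58 on the log2 scale for Isg15, against 48.1% of all features. The other 8 had a higher mean, against 51.9% of all features, and included the neighbouring Ifitm genes. Oasl1, Mx1, Oas3 and Parp9 were kept only through a WT array, so their direction was fixed by the filter. Of the 34 genes above the floor on an array of both groups, 26 had a lower mean in dKO, against 48.6% of such features. None of the 38 passed in limma with Benjamini-Hochberg adjustment over all features, either with genotype alone (smallest adjusted p = 0.937) or with the replicate number as a block (smallest adjusted p = 0.135). In the whole table the first fit called 0 features higher and 0 lower (0% each) and the second called 10 higher (0.096%) and 5 lower (0.048%). At an unadjusted p under 0.05, limma without the block gave 4 lower and 0 higher of the 38 members. Of all 10413 features it gave 175 lower and 182 higher. Limma with the block gave 12 lower and 3 higher of the 38 members, and 560 lower and 638 higher of all 10413 features.

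The 2 dKO arrays lay below both WT arrays for 12 of the 38 genes (31.6%), against 1409 of all features (13.5%). They lay above both for 2 of 38 (5.26%), against 1321 of all features (12.7%), and 24 overlapped. Within replicate numbers, 20 of 38 were lower in dKO in both number 1 and number 2 (52.6%), against 26.6% of all features. Higher in both were 3 of 38 (7.89%), against 27.6%. At least 1.5-fold lower in both numbers were Isg15, Ifit3, Mx2, Ifi35 and Irf8, 5 of 38 (13.2%), against 1.44% of all features. Ifitm2 alone was at least 1.5-fold higher in both, against 1.91% of all features.

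**Figure D1:**
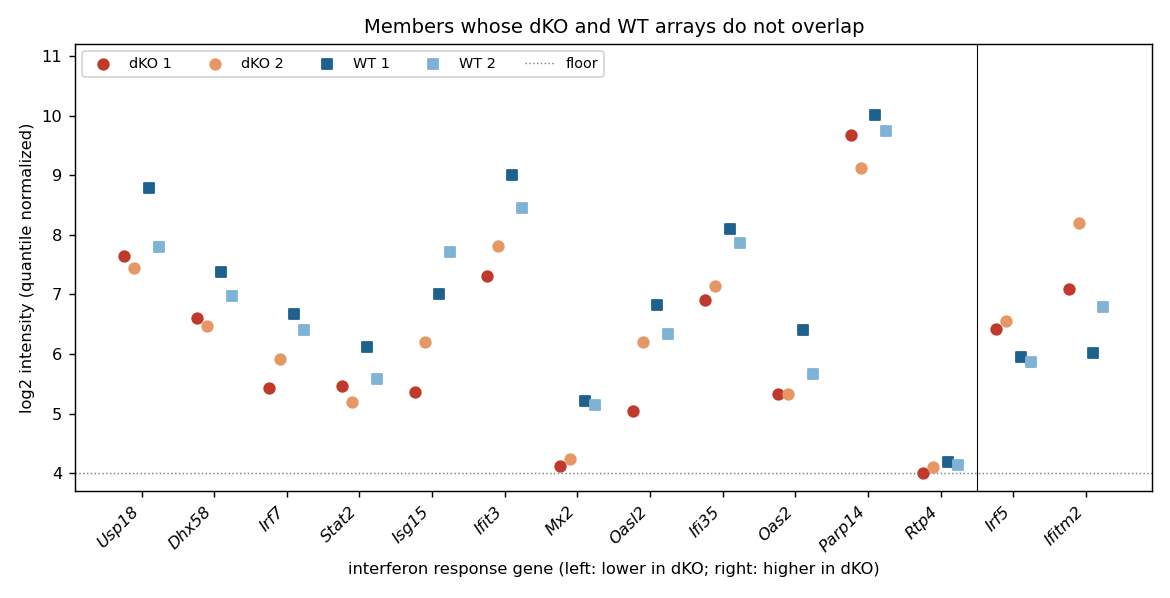
Quantile-normalized log2 intensity of the 14 members whose groups do not overlap, 1 point per array (circles dKO, squares WT; dotted line, the floor of 4 on this scale). The 12 genes left of the line have both dKO arrays below both WT arrays, with Rtp4 lying close to the floor, and Irf5 and Ifitm2 at the right have both above.

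The median log2 difference of the 38 was −0.31, with −0.35 in number 1 and −0.15 in number 2, beside 0.01 for all features. It was −0.11 without WT 1, −0.58 without WT 2 and −0.19 without dKO 2, so its size depends on the arrays included. With 1 array left out the groups hold unlike replicate numbers, so such values mix genotype with replicate number. Leaving out 1 array also moved the log2 difference of 31 of the 38 genes by over 1.5 times, and the other 7 were Dhx58, Irf5, Irf7, Ifit3, Isg15, Mx2 and Ifi35. Differences near 0 pass this ratio by small shifts, such as Irf3 at −0.01, which ran from −0.025 to 0.0033. No such share was taken over all features, so no conclusion is drawn from this count. Of the 20 genes lower in both numbers, 15 differed more in number 1 and 5 more in number 2. Of the 2771 features lower in both, 1278 differed more in number 1 and 1493 more in number 2. The genotypes also differed in sex-linked transcripts. Xist was at 2.96 and 1.09 on the dKO arrays and at 327 and 536 on the WT arrays (deposited intensity), and the Y-linked Eif2s3y was at 235 and 377 on dKO and at 4.05 and 1.57 on WT. Sex and genotype therefore cannot be told apart in any difference given here. In these bulk samples fewer cells of a type and less RNA per cell cannot be told apart either. The red cell genes Hbb-bt, Hbb-bs and Hba-a1, which encode haemoglobin chains, were higher in dKO with no overlap, by 4.32, 4.54 and 4.37 on the log2 scale. They made up 3 of the 10 features that limma called higher with the replicate block (adjusted p from 0.00741 to 0.0176), while with genotype alone they missed its threshold (adjusted p from 0.937 to 0.955). The summed normalized level of the erythroid markers ranged from 917 to 3502 in dKO and from 59.6 to 119 in WT, with 3 of 6 listed markers above the floor. Its part in the interferon values was not tested.

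**Figure D2:**
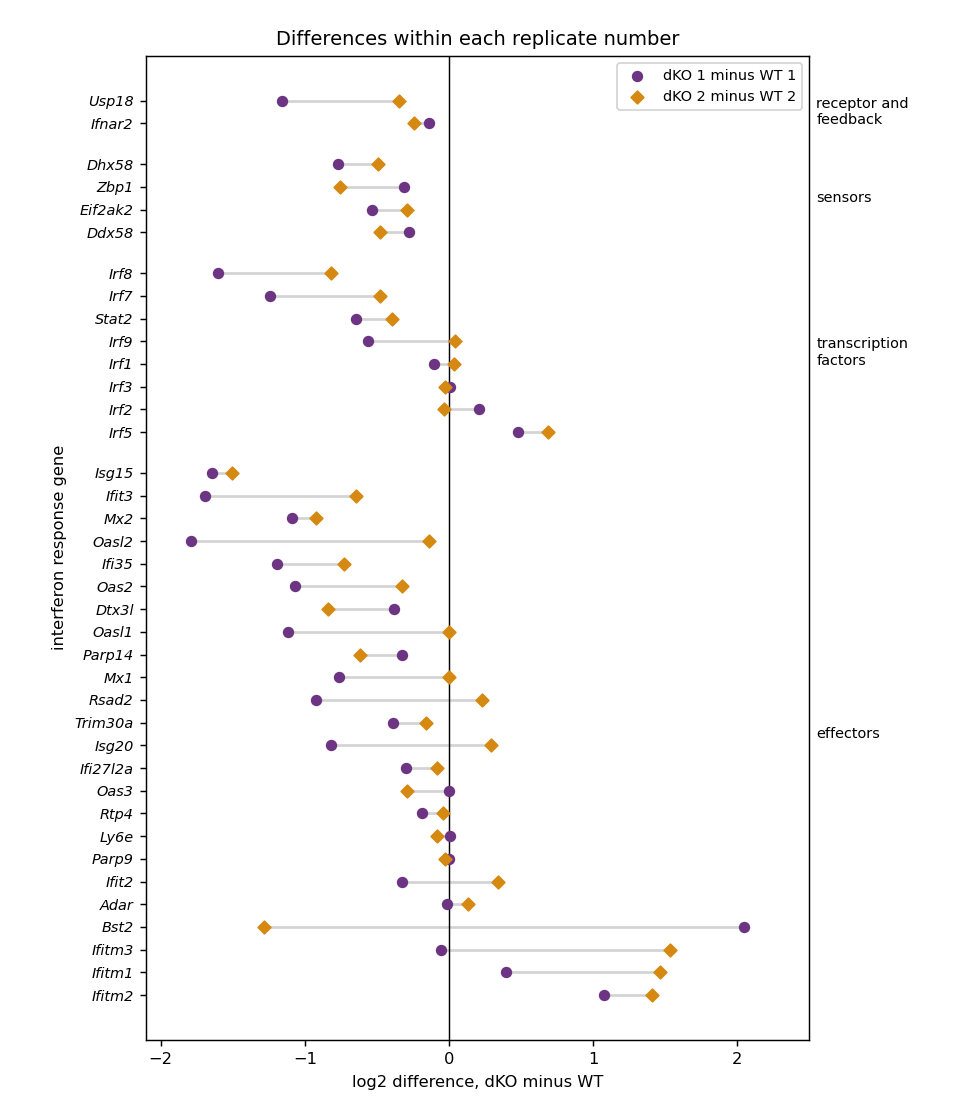
Log2 difference (dKO minus WT) of each of the 38 kept members within replicate number 1 (circles) and number 2 (diamonds), grouped by role. All 4 kept sensors lie left of 0 in both numbers, while Bst2 lies at 2.04 in number 1 and at −1.28 in number 2.

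Ifnar2, the signal-bearing receptor chain, was at 33.2 and 62.1 on the dKO arrays (numbers 1 and 2), against 36.4 and 73.9 on the WT arrays. The groups overlapped, with a log2 difference of −0.19 (SE 0.43). Usp18, a protease that removes ISG15 from proteins and blocks the receptor, was at 176 and 197 on the dKO arrays, against 381 and 252 on the WT arrays. Both dKO values lay below both WT values, and the log2 difference was −0.75 (7.54 ± 0.13 for dKO and 8.29 ± 0.70 for WT, mean ± SD of log2 intensity, n = 2 arrays each). It missed the limma threshold (adjusted p = 0.9997, or 0.362 once the replicate number was blocked), and was −0.25 without WT 1 and −1.25 without WT 2. The other Usp18 probe was at 43.3 and 40.3 in dKO and at 121 and 72.1 in WT, a log2 difference of −1.17.

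All 4 sensors above the floor were lower in dKO in both numbers. Dhx58, which encodes LGP2, a helicase that tunes the RNA sensors RIG-I and MDA5, was at 87.9 and 98.7 on the dKO arrays, against 148 and 140 on the WT arrays. Its log2 difference was −0.63 (6.54 ± 0.10 for dKO and 7.17 ± 0.29 for WT, mean ± SD of log2 intensity, n = 2 arrays each), with no overlap. All 3 of its kept probes had both dKO values below both WT values, with log2 differences from −0.88 to −0.63. Ddx58, encoding RIG-I itself, was at 88.3 and 66.3 in dKO and at 107 and 93.0 in WT. Eif2ak2, the kinase PKR that halts translation on binding double-stranded RNA, was at 238 and 226 in dKO and at 338 and 279 in WT. On the normalized scale both overlapped between groups, with log2 differences of −0.38 for Ddx58 and −0.41 for Eif2ak2. Ddx58 was at −0.02 without dKO 2 and Eif2ak2 at −0.07 without WT 1. On the normalized scale both genes were higher in number 1 in both groups, so these values mix genotype with replicate number. Within numbers 1 and 2 the differences were −0.28 and −0.48 for Ddx58 and −0.53 and −0.29 for Eif2ak2, each from 1 array per group. Zbp1, a sensor of left-handed nucleic acid that can start necroptosis, was near the floor at 17.0 and 32.3 in dKO and at 20.8 and 55.5 in WT. Its log2 difference of −0.53 came with overlap, and was 0.065 without WT 2. None of the 4 sensors passed in limma (adjusted p = 0.9997 each, and 0.369 to 0.544 with the replicate block).

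Irf7, the amplifier of interferon production, was at 39.6 and 66.7 on the dKO arrays, against 91.8 and 93.5 on the WT arrays. Its log2 difference was −0.86 (5.67 ± 0.35 for dKO and 6.53 ± 0.20 for WT, mean ± SD of log2 intensity, n = 2 arrays each), with no overlap. Stat2, the ISGF3 subunit that carries the activation domain, was at 40.7 and 39.5 in dKO and at 62.7 and 52.1 in WT, again with no overlap and a log2 difference of −0.52, or −0.25 without WT 1. Irf9, its DNA-binding partner, was at 325 and 375 in dKO and at 474 and 364 in WT, and the groups overlapped.

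Irf3, the constitutive factor activated by the sensors, was at 1487 and 2138 in dKO and at 1480 and 2185 in WT. Irf2, which competes with IRF1 at its sites, was at 1372 and 976 in dKO and at 1187 and 995 in WT. Their log2 differences were −0.01 for Irf3 and 0.09 for Irf2, with SEs of 0.15 and 0.43. For Irf3 this is the brightest probe. Another Irf3 probe was at 159 and 219 in dKO and at 174 and 308 in WT. It differed by −0.31 with no overlap on the normalized scale, and the remaining Irf3 probe by −0.02 with overlap. Irf1, induced by both interferon classes, was at 1668 and 2589 in dKO and at 1793 and 2512 in WT on its brightest probe, a difference of −0.03 with overlap. Irf5, a factor of myeloid and B cells, had the opposite direction, at 77.5 and 105 in dKO and at 55.9 and 64.4 in WT. Both dKO values were above both WT values (log2 difference 0.58). Of the 8 factors none passed in limma, with adjusted p = 0.9997 each, and 0.271 to 0.982 with the replicate block.

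Irf8, needed for the development of dendritic cells, had the largest difference of the factors but also the widest spread. It was at 30.3 and 143 on the dKO arrays, against 89.3 and 256 on the WT arrays. The log2 difference was −1.21 (6.02 ± 1.39 for dKO and 7.23 ± 0.84 for WT, mean ± SD of log2 intensity, n = 2 arrays each), with dKO below WT within each number and overlap across numbers. Leaving out 1 array moved it between −2.19 and −0.23. Irf8 was higher in number 2 in both groups, so these values mix genotype with replicate number. The difference was −1.60 in number 1 and −0.82 in number 2, so its size is uncertain.

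Some markers of plasmacytoid dendritic cells, interferon-producing cells that in mice can carry CD4, were also lower in dKO, with no test of the list. Siglech, their sialic acid-binding receptor, was at 45.6 and 236 on the dKO arrays, against 213 and 572 on the WT arrays. Pacsin1 was at 240 and 297 in dKO and at 339 and 391 in WT. Tcf4, the factor that fixes their identity, was at 62.3 and 210 in dKO and at 190 and 321 in WT. Of 12 such markers 9 were above the floor on some array, 4 were lower in dKO with no overlap and 0 higher, against 13.5% and 12.7% of all features. Cd209d and Clec10a had means higher in dKO, by 0.47 and 0.05 on the log2 scale, Spib lay at the floor in WT, and Ccr9 and Lifr were at or below the floor on all 4 arrays. Their summed normalized level ranged from 495 to 1136 in dKO and from 1205 to 2237 in WT. The part of these cells in the values of Irf8, Irf7 and the effectors was not tested. The B cell gene Cd79b was at 27.9 and 263 in dKO and at 90.5 and 91.0 in WT, while the B cell markers Ms4a1, Pax5, Ebf1, Cr2 and Fcer2a were at or below the floor throughout.

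**Figure D3:**
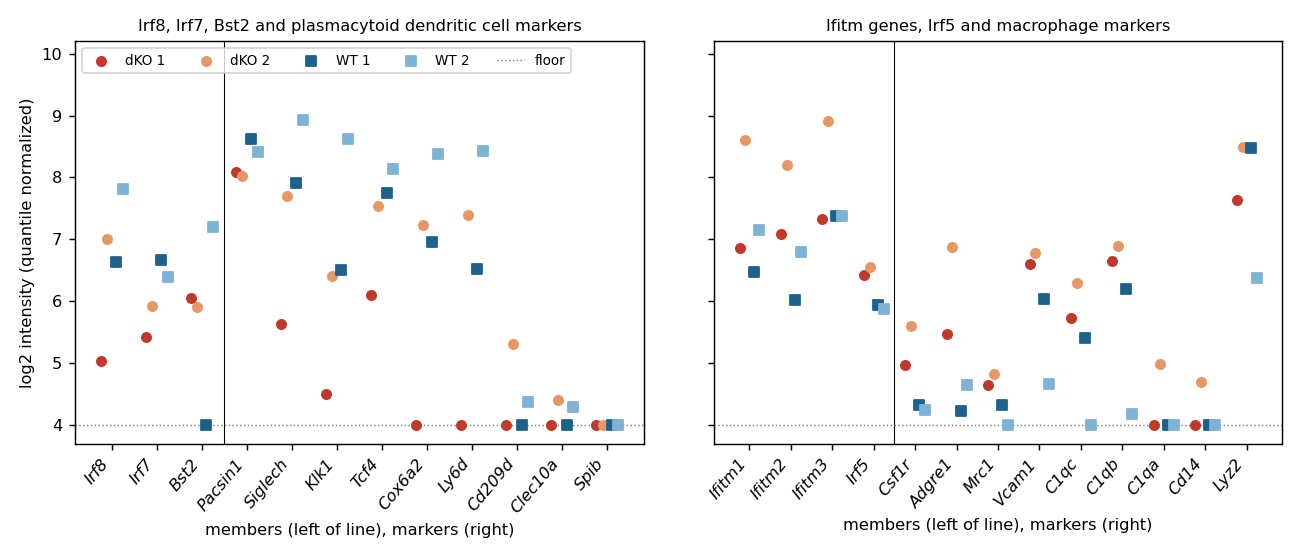
Quantile-normalized log2 intensity per array (circles dKO, squares WT; dotted line, the floor) of members beside markers of other cells. Left, Irf8, Irf7 and Bst2 with markers of plasmacytoid dendritic cells, of which Siglech, Klk1, Tcf4 and Pacsin1 lie lower on both dKO arrays. Right, the Ifitm genes and Irf5 with macrophage markers, of which 6 of 9 lie higher on both dKO arrays.

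Among the effectors, Isg15, a ubiquitin-like protein attached to other proteins, had the largest difference. It was at 37.8 and 81.3 on the dKO arrays, against 115 and 236 on the WT arrays. The dKO over WT ratio was 0.328 in number 1 and 0.345 in number 2, and both dKO arrays were below both WT arrays. The log2 difference of −1.58 (5.78 ± 0.59 for dKO and 7.35 ± 0.49 for WT, mean ± SD of log2 intensity, n = 2 arrays each) lay between −2.00 and −1.16 with any 1 array left out. It missed the limma threshold (adjusted p = 0.9997, or 0.135 once the replicate number was blocked).

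Ifit3, which stabilises IFIT1 on viral RNA, was at 141 and 254 in dKO and at 438 and 404 in WT. Its log2 difference was −1.17 (SE 0.31), with −1.69 in number 1 and −0.65 in number 2. Its probes may also read the near-identical Ifit3b. Ifit2, the adjacent coding gene, was at 95.4 and 103 in dKO and at 119 and 81.2 in WT, a difference of 0.01 with overlap.

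Mx2, a dynamin-like GTPase, was close to the floor, at 16.6 and 19.8 in dKO and at 34.3 and 38.5 in WT. It had the smallest p-value of all 38 genes in limma with genotype alone (log2 difference −1.01, SE 0.18, adjusted p = 0.937, or 0.217 once the replicate number was blocked). Mx1, which is defective in C57BL/6 mice, exceeded the floor only on WT 1. Ifi35 was at 107 and 158 in dKO and at 240 and 265 in WT, a log2 difference of −0.96 (SE 0.24) that stayed between −1.08 and −0.84 with any 1 array left out. For both Mx2 and Ifi35 the groups did not overlap.

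The oligoadenylate synthetases make the second messenger that activates RNase L. Oas2 was at 36.9 and 43.7 in dKO and at 75.9 and 55.2 in WT (log2 difference −0.70). Oasl2, of the same family, was at 30.5 and 81.1 in dKO and at 102 and 89.5 in WT, a difference of −1.79 in number 1 and of −0.14 in number 2. Neither gene overlapped between groups. Without WT 1 the Oas2 difference was −0.33, and without dKO 1 the Oasl2 difference was −0.39. The adjacent Oasl1 exceeded the floor only on WT 1, and Oas3 only on WT 2. The members of this family resemble each other, and single probes are uncertain.

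Parp14 and Dtx3l lie next to each other and to Parp9 on chromosome 16, and DTX3L forms a ubiquitin ligase with PARP9. Parp14, which adds ADP-ribose to proteins, was at 697 and 650 in dKO and at 869 and 997 in WT, with no overlap (log2 difference −0.47, or −0.19 without dKO 2). Dtx3l was at 426 and 298 in dKO and at 555 and 544 in WT. Its log2 difference was −0.61, lower in both numbers with overlap on the normalized scale, and it was −0.14 without dKO 2 and −1.08 without dKO 1. Parp9 stayed within 0.03 log2 units of the floor.

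Other effectors overlapped or hardly differed. Rsad2, encoding viperin, which makes a chain-terminating nucleotide, was at 85.7 and 150 in dKO and at 160 and 127 in WT. The exonuclease gene Isg20 was at 34.9 and 59.7 in dKO and at 60.5 and 48.3 in WT. Both were lower in dKO in number 1 and higher in number 2. Trim30a, Ifi27l2a and Ly6e, the last a membrane protein that blocks viral fusion, had log2 differences of −0.27, −0.19 and −0.04. Rtp4 was lower without overlap, but by only −0.11 at the floor. Bst2, the tether that holds budding virus, was at 59.8 and 66.3 in dKO and at 15.5 and 165 in WT, so the WT arrays lay on both sides of the dKO arrays. No effector passed in limma, with adjusted p from 0.937 to 0.9997, and from 0.135 to 0.997 with the replicate block.

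The adjacent genes Ifitm2, Ifitm1 and Ifitm3 on chromosome 7, which encode membrane proteins that stop viral entry, ran the other way. Ifitm2 was at 122 and 336 on the dKO arrays, against 58.9 and 123 on the WT arrays. The dKO over WT ratio was 2.07 in number 1 and 2.73 in number 2, with a log2 difference of 1.24 (7.65 ± 0.78 for dKO and 6.41 ± 0.54 for WT, mean ± SD of log2 intensity, n = 2 arrays each) and no overlap. It missed the limma threshold (adjusted p = 0.9997, or 0.177 once the replicate number was blocked), and lay between 0.69 and 1.79 with 1 array left out (0.69 without dKO 2).

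Ifitm1 was at 104 and 455 in dKO and at 79.5 and 159 in WT, higher in dKO within each number with overlap across numbers, and its log2 difference of 0.93 was 0.055 without dKO 2. Its other kept probe was at 41.7 and 78.0 in dKO and at 19.7 and 37.5 in WT, a log2 difference of 1.07 with no overlap. Ifitm3 was at 143 and 563 in dKO and at 148 and 188 in WT, so that only dKO 2 stood above. Its log2 difference was 1.53 in number 2 and −0.05 in number 1, and −0.05 without dKO 2. These proteins are alike in sequence, and their probes may share signal.

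Macrophage markers were, like the Ifitm genes and Irf5, higher in dKO on more probes than lower, with no test of the list. Adgre1, encoding the macrophage antigen F4/80, was at 40.7 and 131 in dKO and at 17.9 and 26.8 in WT. C1qb, a complement chain they secrete, was at 90.1 and 132 in dKO and at 66.1 and 19.0 in WT. Lyz2, a lysozyme, was at 176 and 417 in dKO and at 309 and 91.8 in WT, with overlap. Of 14 such markers 9 were above the floor on some array. Both dKO arrays exceeded both WT arrays for 6 and lay below them for 0, against 12.7% and 13.5% of all features, and Itgam, Fcgr1 and Cd163 were at or below the floor on all arrays. C1qa and Cd14 were kept only through dKO 2, so their direction was fixed by the filter. The summed normalized level was 582 in dKO 1 against 629 in WT 1, and 920 in dKO 2 against 234 in WT 2. It was thus higher in dKO in number 2 only. Its part in the Ifitm and Irf5 values was not tested.

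The probe chosen for a gene changed the picture for some members. Of 13 members with more than 1 kept probe, 10 had all of them lower in dKO, and Adar and Ifit2 had probes of opposite sign. No such share was taken over all genes, and some of these probes hardly differed, such as the brightest of Irf3 at −0.01. Counting probes, 23 of 60 kept member probes were lower in dKO with no overlap and 3 higher, against 14.2% and 11.9% of all kept probes. Adar encodes the enzyme that edits adenosine to inosine in double-stranded RNA, with a long, interferon-induced and a short, constitutive form. Its brightest probe was at 108 and 180 in dKO and at 108 and 164 in WT. Another was at 108 and 98.2 in dKO and at 156 and 165 in WT, a log2 difference of −0.64. One more was at 66.1 and 71.4 in dKO and at 109 and 114 in WT, a difference of −0.69. These 2 had both dKO arrays below both WT arrays, while the remaining kept probe differed by −0.01. Which form each probe reads was not determined here.

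Irf1 and Irf9 were alike in this respect. The brightest Irf1 probe differed by −0.03, and the remaining 4 by −0.61 to −0.42, lower in dKO in both numbers. One of them was at 214 and 165 in dKO and at 287 and 288 in WT. The second Irf9 probe was at 126 and 106 in dKO and at 198 and 148 in WT, a difference of −0.57, against −0.26 on the brightest. With the mean of probes for each gene, the median of the transcription factors was −0.42, against −0.15 with the brightest probe.

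**Figure D4:**
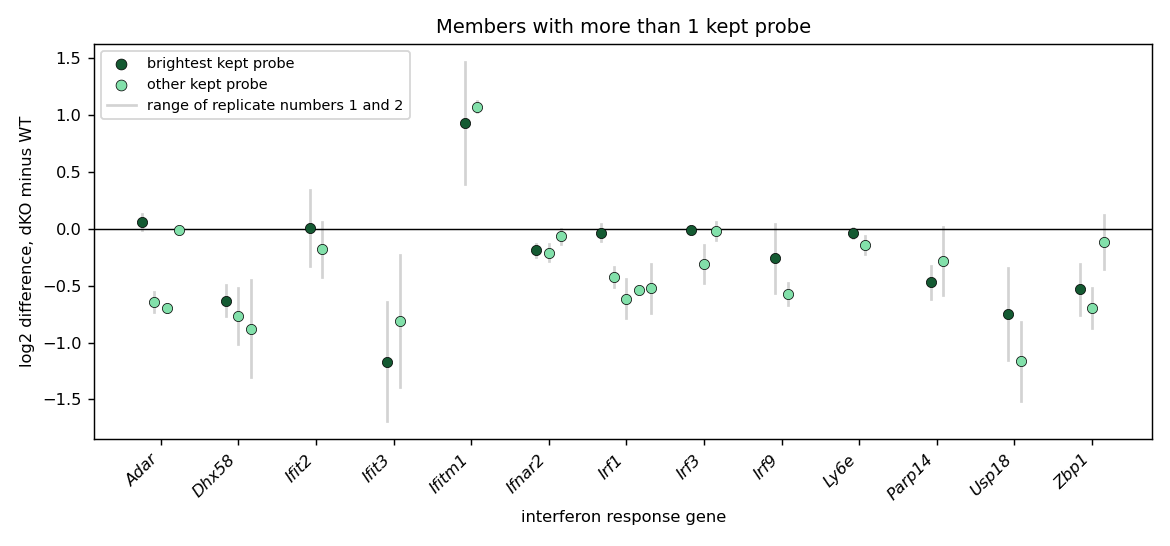
Log2 difference (dKO minus WT) of each kept probe of the 13 members with more than 1 (dark, the brightest; light, the others; grey bars span replicate numbers 1 and 2). The 4 other Irf1 probes and 2 Adar probes lie between −0.69 and −0.42, below the brightest probe of their gene.

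Beyond the 44 genes, 2 further lists were read, 1 of interferon signalling and 1 of other interferon-induced genes. No gene of either passed in limma, with or without the replicate block. For 12 of 45 other induced genes (26.7%) both dKO arrays lay below both WT arrays, and for 2 (4.44%) above, against 13.5% and 12.7% of all features. The median log2 difference was −0.21, beside 0.01 for all features. Lower in dKO with no overlap were Oas1g (−0.63), Epsti1 (−0.56), Parp10 (−0.65), the ISG15-conjugating enzyme gene Ube2l6 (−0.78) and the nuclear body gene Pml (−0.43). The 2 higher were Cmpk2 and the chemokine gene Cxcl9, which interferon gamma induces. Cmpk2 was at 76.5 and 129 in dKO and at 62.5 and 77.2 in WT (0.51). Cxcl9 was at 20.8 and 29.5 in dKO and at 17.7 and 14.8 in WT, below the floor on WT 2.

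Of 23 other signalling genes, 6 were lower (26.1%) and 4 higher (17.4%) without overlap, against 13.5% and 12.7% of all features, and the median log2 difference was −0.02. Ifng itself was at 248 and 553 in dKO and at 470 and 1132 in WT, a log2 difference of −0.99 with no overlap. The X-linked RNA receptor gene Tlr7 differed by −0.82 and the kinase gene Ikbke by −0.45. Higher without overlap were Socs3, an inhibitor of cytokine receptors (0.67), Irf2bp2 (0.46), the receptor chain gene Ifngr1 (0.40) and Myd88 (0.28). The Socs3 difference was 1.32 in number 1 and 0.02 in number 2. The genes for interferon beta and alpha measured here, Ifnb1, Ifna1, Ifna2 and Ifna4, were at or below the floor on all arrays.

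The sort and the deletion were read in the same table. Cd3e was at 3162 and 4279 in dKO and at 2250 and 4764 in WT, and Cd4 at 151 and 84.4 in dKO and at 105 and 141 in WT. Of 8 CD4 T cell markers tested, Cd6 was higher with no overlap (log2 difference 0.69) and Cd3d lower (−0.19). That was 12.5% each, against 12.7% and 13.5% of all features. Cd44, used in the sort, was at 813 and 858 in dKO and at 1110 and 1107 in WT. It was lower in both numbers (−0.42), with overlap. Cd8a was at or below the floor on all arrays, while Cd8b1 was at 691 and 512 in dKO and at 736 and 602 in WT. Of 8 markers of NK and CD8 T cells tested, 6 were lower in dKO with no overlap (75%, against 13.5% of all features). Of these 6, Klrb1c, Klre1 and Klrk1 were kept only through the WT arrays, so their direction was fixed by the filter. Ctsw, Klrd1 and Nkg7 were above the floor in both groups. The summed normalized level of the markers ranged from 2474 to 2952 in dKO and from 3983 to 4676 in WT. Its part in the interferon values was not tested. Map3k3, which encodes MEKK3, was at 204 and 246 in dKO and at 311 and 387 in WT, with no overlap. Its log2 difference was −0.63, with −0.64 in number 1 and −0.63 in number 2. It missed the limma threshold (adjusted p = 0.9997, or 0.291 once the replicate number was blocked). Both probes of Map3k2, which encodes MEKK2, were below the floor and check nothing, and whether the deletion covers the Map3k3 probe was not determined here.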

How the data were processed

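The deposited table holds linear probe intensities that include values below 0, so background had been subtracted; the tools that produced them are not given in the sources used here. Sorted values of the 2 arrays of a replicate number agreed within 0.0846 (number 1) and 0.0793 (number 2), so these arrays had been normalized together. The 8 columns of another table, of raw signals and detection p, match no sample's labels and were left out.

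Values below 16 were set to 16, and log2 values were quantile normalized across all 4 arrays, with floored values kept at the floor. Probes above the floor on at least 1 array were kept (14673 of 45281). By GEO's platform annotation 34885 probes had 1 gene symbol, 18 had several and 10378 had none, and RefSeq's GRCm38.p6 table, matched by Entrez ID for 34807, was used for current symbols and for neighbouring genes. Each gene was represented by its brightest kept probe, which left 8285 genes and 2128 unnamed probes. Limma 3.58.1 in R 4.3.3 (lmFit, eBayes with trend, two-sided) fitted genotype on 2 residual degrees of freedom, and with the replicate number as a block on 1. The numbers pair nothing that the labels state. The scripts were tested on simulated arrays. The number of arrays limits the precision. No test was made of a list, and counts of genes with no overlap are given beside the share of all features. All 44 members may be named, and up to 6 genes of each further list by unadjusted p. Of each marker list some of the brightest genes are named, but not all of these, and some markers at the floor on all arrays. Adgre1, Klk1, Cd209d, Clec10a, Spib, Cd4, Cd44, C1qa, Cd14, Klrb1c, Klre1, Klrk1, Ctsw, Klrd1 and Nkg7 were added after their values were seen. So were Cmpk2 and Myd88 of the further lists. The members and lists were chosen with earlier results of these data known.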

Additional observations from a re-analysis of the deposited data

How the results depend on the processing

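Of 15 alternative settings, 1 was chosen after seeing the data (deposited values with the replicate block). With genotype alone, limma called 0 features higher and 0 lower with any array left out. It called 10 higher and 5 lower with the replicate block, and 3 and 1 both with log2(signal + 16) and with medians equalized. With no filter it called 57 and 39, where most residual variances were 0, and on deposited values without quantile normalization but with the replicate block 19 and 12. Of 560 member values under alternatives, 1 newly passed, Isg15 with no filter (adjusted p = 0.0107, range over its alternatives 0.0107 to 1.000). With 1 array left out, a lone array is assumed to vary like the other group's, and non-overlap is easier to reach. Members lower with no overlap then numbered 18 to 23 and higher 3 to 5. No share of all features is given for these settings. The shares given earlier are for the full set of arrays, so they do not apply to these counts, and no conclusion is drawn from the rise. On deposited values without quantile normalization, with or without the block, 1 member was higher with no overlap. Medians with 1 array left out ran from −0.58 to −0.11 (all kept members), −0.59 to −0.35 (receptor and feedback), −0.69 to −0.27 (sensors), −0.45 to −0.0083 (transcription factors) and −0.54 to −0.084 (effectors). The sensor median was −0.39 at a floor of 32, −0.37 with log2(signal + 16) and −0.41 with no filter. The receptor median was −0.19 with no filter, and that of the transcription factors −0.42 with the mean of probes. Of the 560 values 24 had another sign, in 13 genes. With 1 array left out these ran from −0.57 to 0.19 (Ifnar2), −1.13 to 0.065 (Zbp1), −0.075 to 0.0089 (Irf1), −0.40 to 0.58 (Irf2), −0.025 to 0.0033 (Irf3), −0.66 to 0.14 (Irf9), −0.42 to 0.44 (Ifit2), −0.56 to 0.032 (Isg20), −0.50 to 0.12 (Ifi27l2a), −0.054 to 1.53 (Ifitm3), −0.15 to 0.27 (Adar) and −1.22 to 1.98 (Bst2). Parp9 was at 0.29 at a floor of 8 and 0.19 with log2(signal + 16), Bst2 at −0.12 at a floor of 32, Adar at −0.32 with the mean of probes, and Ifit2 at −0.0014 with log2(signal + 16) and −0.088 with the mean of probes. For none of these was the cause tested. Deviations of same-numbered arrays from their group means correlated at 0.472 over features, the labels name no pairing, and the block changed no call of a member.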
